A study of Mus musculus with 10 samples.

Results

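The receptors CAR (constitutive androstane receptor, gene Nr1i3) and PXR (pregnane X receptor, gene Nr1i2) and the cytochrome P450 genes Cyp2b10, Cyp3a11, Cyp3a13 and Cyp3a25 were followed in fibrotic and control mouse liver. A gene was measured where a probe set, the group of probes that gives 1 value per array, carried its symbol alone, and the brightest such probe set stood for it. By this rule 4 of the 6 genes were measured, namely Nr1i2, Nr1i3, Cyp2b10 and Cyp3a13, of 14860 genes on the array. Cyp3a11 and Cyp3a25 were found only on probe sets shared with neighbouring Cyp3a genes, so that no value belongs to either of them alone. The 2 groups were livers of male Balb/c mice, 8 weeks old when obtained, that received carbon tetrachloride (CCl4), a hepatotoxin, or oil for 6 weeks. Each group held 5 livers, each on its own Affymetrix whole-transcript array, and the labels call them biological replicates. No allele, transgene or further treatment is named for either group.

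CAR and PXR are nuclear receptors of the hepatocyte that sense drugs, bile acids and other foreign or endogenous chemicals. Each pairs with the retinoid X receptor RXR on DNA and turns on genes for oxidation, conjugation and export of such compounds. Cyp2b10 is the classic target of CAR and Cyp3a11 that of PXR in the mouse, although the receptors share many targets. Cyp3a enzymes oxidise steroids, bile acids and a large share of drugs. Inflammation of the liver is known to lower both receptors and many P450 genes, and CCl4 itself is activated by P450 enzymes of the pericentral hepatocyte.

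The promoters of the receptor pair are shown because the receptors differed in their change with CCl4, and a stretch of each Cyp3a promoter because it holds, or lacks, a hexamer that nuclear receptors bind. The sequences are from RefSeq (build GRCm38.p6), which held a promoter for all 6 genes, and end at or before the base next to the start site. They are written 5′ to 3′ on the strand of the gene. Searched on both strands over 250 bases were the hexamers AGGTCA and AGTTCA of nuclear receptors, the E-box CACGTG of clock and other factors, and the D-boxes TTATGTAA and TTACGTAA of the Dbp family. None of these motifs overlaps another in the stretches printed. Capitals mark every match on either strand, and a match is no evidence that a factor binds.
Nr1i3 (chr1:171213720-171213969, plus strand): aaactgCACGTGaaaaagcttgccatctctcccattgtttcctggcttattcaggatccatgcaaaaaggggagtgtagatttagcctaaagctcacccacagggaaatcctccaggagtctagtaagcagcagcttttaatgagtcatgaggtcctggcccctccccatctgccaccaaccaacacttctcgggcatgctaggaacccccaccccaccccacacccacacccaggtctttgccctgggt
Nr1i2 (chr16:38294825-38295074, minus strand): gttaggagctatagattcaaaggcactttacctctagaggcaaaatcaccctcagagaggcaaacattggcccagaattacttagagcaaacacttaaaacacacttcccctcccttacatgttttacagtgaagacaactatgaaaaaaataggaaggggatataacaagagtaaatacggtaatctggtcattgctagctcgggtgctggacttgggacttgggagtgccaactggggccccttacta
Cyp3a11 (chr5:145879975-145880044, minus strand): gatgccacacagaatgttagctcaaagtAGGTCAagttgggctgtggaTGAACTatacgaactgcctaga
Cyp3a25 (chr5:146009739-146009808, minus strand): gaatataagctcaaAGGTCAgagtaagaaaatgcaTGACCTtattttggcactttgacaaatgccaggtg
Cyp3a13 (chr5:137921740-137921809, minus strand): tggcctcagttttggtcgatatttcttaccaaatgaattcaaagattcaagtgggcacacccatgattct

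The Nr1i3 window held an E-box 244 bases before the start site, a motif found in 6.02% of the 32851 promoter windows of this length, and the Nr1i2 window held none of the motifs. AGGTCA, present in 14.0% of windows, lay 162 bases before the start of Cyp3a11 and 176 bases before that of Cyp3a25. Cyp3a25 held it again on the opposite strand at 155 bases, and Cyp3a11 held AGTTCA, found in 11.8% of windows, on the opposite strand at 142 bases. The windows of Cyp2b10 and Cyp3a13 held none of the 5 motifs. TTATGTAA was found in 0.819% and TTACGTAA in 0.113% of all windows, and neither in those of the 6 genes.

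As to the arrays, values are log2 units as the authors deposited them, and array medians lay between 2.54 and 2.66. Markers of hepatocytes were bright (Alb, albumin, at 13.1 on average over the 10 arrays), as in liver tissue. CCl4 replicate 4 stood apart from the other livers and received the lowest array quality weight, 0.459. By limma adjusted p under 0.05, which 0.630% of all probe sets passed as higher, 6 of 12 measured macrophage markers were higher in CCl4 livers (median difference 2.45). Stellate cell and myofibroblast markers were higher for 7 of 12 (median 1.55). These counts were 3 and 7 without CCl4 replicate 4, where 79 of all probe sets were higher, against 147 with all arrays. The mean of the macrophage list ranged from 4.23 to 4.77 in oil and from 5.74 to 7.95 in CCl4 livers, and that of the stellate list from 4.88 to 5.66 and from 6.45 to 7.61. Of the markers of hepatocytes (7 genes), pericentral (10) and periportal hepatocytes (7), endothelium (9), bile duct cells (5), lymphocytes (8), enterocytes (5) and red blood cells (3), 0 passed the test by limma. An unadjusted p under 0.05, where 11.3% of all probe sets lie, was found for 4 pericentral markers, 1 enterocyte and 1 red blood cell marker, all lower. It was also found for 2 periportal and 2 endothelial markers, all higher. The median differences of these lists lay between -0.18 (pericentral, or -0.04 without CCl4 replicate 4) and 0.20 (endothelium, or 0.06).

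None of the 4 measured genes passed the test between CCl4 and oil livers, in which 0.720% of all 23332 probe sets passed in either direction, 0.630% as higher and 0.0900% as lower (limma adjusted p under 0.05). At an unadjusted p under 0.05 there was 1 of 4, Nr1i3, where 11.3% of all probe sets lie. The values of CCl4 and oil arrays overlapped for all 4 genes, where they did not overlap for 3.89% of all probe sets. The methods' t-test, with no adjustment and with a fold of more than 1.6 required, took Nr1i3 alone of the 4, and 3.0% of all probe sets.

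Nr1i3, the CAR gene, was at 8.40, 8.17, 7.94, 7.79 and 7.87 in oil replicates 1 to 5. In CCl4 replicates 1 to 5 it was at 7.16, 6.62, 7.37, 6.92 and 7.87. Thus 4 of the 5 CCl4 livers lay below every oil liver, and CCl4 replicate 5 lay within the range of the oil group. The means were 8.03 ± 0.25 (SD, n = 5) in oil and 7.18 ± 0.47 (SD, n = 5) in CCl4 livers, a log2 difference of -0.85 ± 0.22 (SE), or a 1.80-fold lower mean on the linear scale. The 95% confidence interval ran from -1.33 to -0.37, and the adjusted p was 0.122 over all probe sets (limma). Without CCl4 replicate 5 the difference was -1.02 and the adjusted p 0.0282, past the threshold (limma). That liver had the highest Nr1i3 of its group, so leaving it out had to widen the difference. In the same fit 40 of all probe sets passed as lower, against 21 with all arrays. With any other array left out, the adjusted p of Nr1i3 lay between 0.147 and 0.242 (limma). Whole liver was measured, so that fewer cells of a type and less RNA per cell cannot be told apart. The mean of the hepatocyte list ranged from 11.5 to 12.0 in oil and from 11.7 to 12.1 in CCl4 livers. That of the pericentral list ranged from 7.07 to 7.25 in oil and from 6.60 to 7.05 in CCl4 livers, a narrow gap. The pericentral genes were mixed, with differences from -1.58 (Oat) to 0.48 (Rhbg), and 0 of the 10 passed (limma). Their median was -0.18, or -0.04 without CCl4 replicate 4. The part of pericentral hepatocytes in the Nr1i3 result was not tested.

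Nr1i2, the PXR gene, gave 7.51, 7.72, 7.26, 7.27 and 7.12 in oil replicates 1 to 5. It gave 7.27, 7.49, 7.30, 7.64 and 7.52 in CCl4 replicates 1 to 5. The highest and the lowest value were both in oil livers, and the CCl4 livers lay between them. The means were 7.38 ± 0.24 (SD, n = 5) and 7.44 ± 0.16 (SD, n = 5), a log2 difference of 0.07 ± 0.13 (SE) with a 95% confidence interval from -0.21 to 0.34 (limma adjusted p = 0.918).

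The receptors were then compared in their change, by the difference of Nr1i3 minus Nr1i2 within each array. The height of this difference has no meaning between 2 probe sets, and only its shift between groups was read. It was 0.88, 0.45, 0.68, 0.52 and 0.74 in oil replicates 1 to 5 and -0.11, -0.87, 0.07, -0.72 and 0.35 in CCl4 replicates 1 to 5. Every CCl4 liver lay below every oil liver. The mean fell from 0.66 ± 0.17 (SD, n = 5) to -0.26 ± 0.52 (SD, n = 5), a shift of -0.91 (two-sided exact permutation test, p = 0.00794, the smallest that 5 against 5 arrays allow). This was 1 comparison; 3 more had been planned that involved Cyp3a11 or Cyp3a25 and could not be run. With the arrays taken as same-numbered pairs the smallest possible p, 0.0625, was reached, which misses the threshold.

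**Figure D1:**
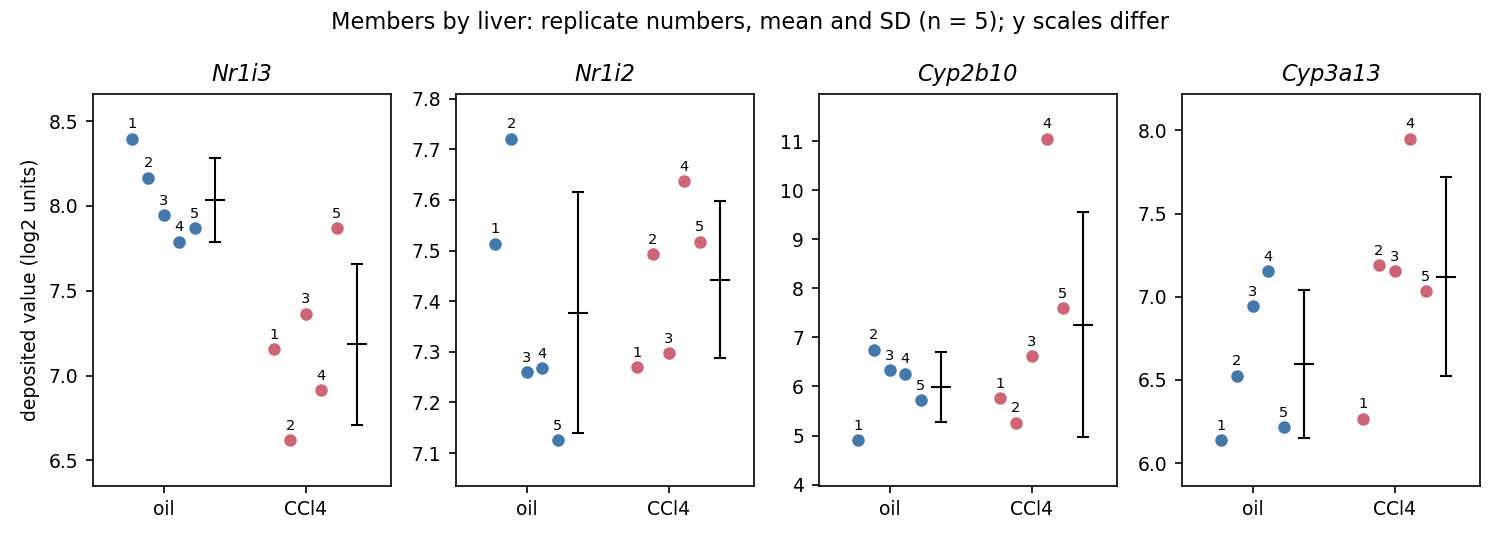
Deposited values (log2 units) of Nr1i3, Nr1i2, Cyp2b10 and Cyp3a13 in each liver, oil in blue and CCl4 in red, with replicate numbers at the points and bars for the mean and SD (n = 5). The y axes differ between panels. For Nr1i3, 4 CCl4 livers lie below all oil livers, and for Cyp2b10, CCl4 replicate 4 lies at 11.05, above the other 9.

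**Figure D2:**
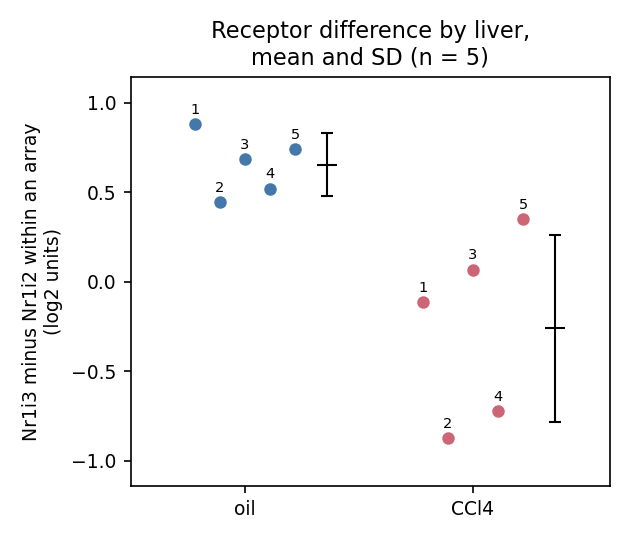
Nr1i3 minus Nr1i2 within each array (log2 units), by group, with replicate numbers at the points and bars for the mean and SD (n = 5). The 5 CCl4 livers, from -0.87 to 0.35, lie below the 5 oil livers, from 0.45 to 0.88.

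Cyp2b10, the CAR target, was at 4.90, 6.75, 6.33, 6.26 and 5.72 in oil replicates 1 to 5. It was at 5.77, 5.26, 6.62, 11.05 and 7.59 in CCl4 replicates 1 to 5. The distance of CCl4 replicate 4 from the mean of its 4 group members was 4.74, and of these only replicate 5 lay above all oil livers. The means were 5.99 ± 0.71 (SD, n = 5) in oil and 7.26 ± 2.30 (SD, n = 5) in CCl4 livers, a log2 difference of 1.27 ± 0.95 (SE) with a 95% confidence interval from -0.83 to 3.36 (limma adjusted p = 0.70). Without CCl4 replicate 4 the difference was 0.32, with an interval from -0.81 to 1.44.

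Cyp3a13, a Cyp3a enzyme of liver and gut, was at 6.14, 6.53, 6.94, 7.15 and 6.22 in oil replicates 1 to 5. In CCl4 replicates 1 to 5 it was at 6.27, 7.19, 7.15, 7.95 and 7.03. The highest value was again in CCl4 replicate 4, and CCl4 replicate 1 lay among the lower oil livers. The means were 6.59 ± 0.44 (SD, n = 5) and 7.12 ± 0.60 (SD, n = 5), a log2 difference of 0.52 ± 0.30 (SE) with an interval from -0.14 to 1.19 (limma adjusted p = 0.572). Without CCl4 replicate 4 it was 0.32, with an interval from -0.27 to 0.91. The enterocyte list had a median difference of -0.01. Its genes Vil1, Lct and Cdh17 lay below the array medians, at means of 1.77, 2.12 and 1.61, so that this median says little. Its brightest gene, Fabp2 (mean 8.58), was at -1.09 (limma adjusted p = 0.0743). The part of enterocytes in the Cyp3a13 values was not tested.

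The Cyp3a11 locus was covered by 2 probe sets, each annotated to Cyp3a11, Cyp3a41a, Cyp3a41b and Cyp3a44 together. The brighter of them was at 11.52, 11.78, 11.69 and 11.60 in oil replicates 2 to 5, lower still in oil replicate 1, and at 11.60, 11.27, 11.54, 11.87 and 11.45 in CCl4 replicates 1 to 5, with overlapping groups. Its log2 difference was 0.02 ± 0.16 (SE), with a 95% confidence interval from -0.33 to 0.38 (limma adjusted p = 0.979). The dimmer gave 0.05 ± 0.23 (SE), from 3.71 to 4.53 in oil and from 3.83 to 4.77 in CCl4 livers (limma adjusted p = 0.971). The probe set annotated to Cyp3a25, Cyp3a57 and Cyp3a59 ranged from 7.55 to 8.42 in oil and from 7.57 to 8.16 in CCl4 livers, with a difference of -0.16 ± 0.19 (SE) and an interval from -0.59 to 0.26 (limma adjusted p = 0.850). Each of these values covers several near-identical genes together, and opposite changes of single genes could go unseen. In all 3 probe sets the lowest of the 10 values lay in oil replicate 1.

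Of the remaining genes of the Cyp2b and Cyp3a families, Cyp2b19 and Cyp3a16 had probe sets of their own, at means of 1.82 and 1.27, below the array medians. Values this low may lie at background, where differences are compressed. Their log2 differences were -0.21 ± 0.09 and 0.18 ± 0.08 (SE), with adjusted p of 0.420 and 0.435 (limma). A probe set shared by Cyp2b9 and Cyp2b13, which are female-biased in mouse liver, with 2 unrelated genes lay at 1.89 on average.

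The variation among livers was set side by side for the genes. Over the deviations of the 10 arrays from their group means, which share array and depth of signal, Cyp2b10 and Cyp3a13 had r = 0.70, and r = 0.42 without CCl4 replicate 4. Nr1i3 had r = -0.02 with Cyp2b10, -0.36 with Cyp3a13 and 0.20 with Nr1i2, and Nr1i2 had 0.41 with Cyp2b10 and 0.25 with Cyp3a13. Without CCl4 replicate 4, r of Nr1i3 was 0.51 with Cyp2b10, -0.24 with Cyp3a13 and 0.35 with Nr1i2, and that of Nr1i2 was 0.17 with Cyp2b10 and 0.01 with Cyp3a13. These values describe 10 arrays and carry no test.

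The genes most like Nr1i3 in these deviations, among 8843 brighter genes and over 10 arrays, were Abcb6 (r = 0.94), a porphyrin transporter, Cbx8 (r = 0.93), a Polycomb protein, and Kcnk3 (r = 0.90), a potassium channel. Those most like Nr1i2 were Smarca2 (r = 0.96), a chromatin remodeller, Mapk14 (r = 0.95), the p38α kinase, and Baiap2l1 (r = 0.93), an adaptor protein. Those most like Cyp2b10 were Gjc3 (r = 0.99), a connexin gene, Polrmt (r = 0.97), the mitochondrial RNA polymerase, and Hbs1l (r = 0.96), a ribosome rescue factor. Leaving out CCl4 replicate 4, r with Cyp2b10 was 0.95 for Gjc3, 0.93 for Polrmt and 0.84 for Hbs1l. For the genes like Nr1i3 and Nr1i2 it was then 0.91 or higher. All these genes were picked as the highest of all r and carry no test. Abcb6 was at 7.29, 7.33, 7.27, 7.17 and 7.18 in oil replicates 1 to 5 and at 6.92, 6.68, 7.05, 6.81 and 7.15 in CCl4 replicates 1 to 5. Its groups did not overlap, and its log2 difference was -0.32 (limma adjusted p = 0.192).

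Dimer partners and coregulators of the receptors came next. Of 18 listed genes 16 were measured and 0 passed in either direction (limma). An unadjusted p under 0.05 was found for 2, both lower, where 11.3% of all probe sets lie, and for 0 without CCl4 replicate 4. The median log2 difference was 0.11 against 0.01 over all probe sets, and -0.01 without CCl4 replicate 4. Rxra, the main dimer partner in liver, was at 0.12 ± 0.10 (SE), and Hnf4a, the hepatocyte factor that maintains both receptors, at 0.11 ± 0.19 (SE), or -0.01 without CCl4 replicate 4. Nr0b2 (SHP), a repressor without DNA-binding domain, was at 6.96, 7.01, 8.46, 8.38 and 7.03 in oil replicates 1 to 5 and at 7.13, 4.82, 7.13, 6.41 and 6.66 in CCl4 replicates 1 to 5. The groups overlapped, and the difference was -1.14 ± 0.49 (SE, limma adjusted p = 0.408). Rxrg was at -0.47 (adjusted p = 0.409), Ppargc1a, a coactivator of fasting, at 1.05 (adjusted p = 0.654), or 0.29 without CCl4 replicate 4, and Nr1h4 (FXR), the bile acid receptor, at 0.14 (adjusted p = 0.716, all limma).

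Further targets of CAR or PXR were examined as a list of 42 genes, of which 29 were measured. The test was passed by 1 as higher and 0 as lower, where 0.630% and 0.0900% of all probe sets pass. At an unadjusted p under 0.05 there were 3 higher and 8 lower, where 11.3% of all probe sets lie in both directions together. Without CCl4 replicate 4 there were 5 higher and 9 lower, for which no share of all probe sets is at hand. The median was -0.15 against 0.01 over all probe sets. The gene that rose was Cd36, a fatty acid transporter that macrophages also express. Cd36 was at 3.78, 3.79, 4.28, 5.09 and 3.93 in oil replicates 1 to 5 and at 6.81, 7.39, 6.46, 7.46 and 6.14 in CCl4 replicates 1 to 5, without overlap. Its log2 difference was 2.68 ± 0.32 (SE, limma adjusted p = 0.00702), and it moved with the macrophage list, whose part in the result was not tested.

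Of the further targets with the smallest adjusted p, Aldh1b1, a mitochondrial aldehyde dehydrogenase that is also among the periportal markers, was at 1.45 ± 0.34 (SE, adjusted p = 0.0940), and Abcb1a, the drug efflux pump P-glycoprotein, at 0.69 ± 0.17 (SE, adjusted p = 0.107). Ces2a, a carboxylesterase, was at -0.85 ± 0.20 (SE, adjusted p = 0.104, all limma). Cyp1a2, the pericentral P450 of aromatic amines, was at 11.49, 11.44, 11.54, 11.35 and 11.45 in oil replicates 1 to 5 and at 10.87, 10.65, 10.84, 9.03 and 10.71 in CCl4 replicates 1 to 5. All CCl4 livers lay below all oil livers, and the difference was -1.03 ± 0.31 (SE, limma adjusted p = 0.195). The pericentral list mean was also lower, by the narrow gap given above, and its part in the Cyp1a2 values was not tested. Without CCl4 replicate 4 the Cyp1a2 difference was smaller, -0.69 ± 0.08 (SE), and passed (limma adjusted p = 0.0139). Cyp1a2, Sult2a8 and Ugt2b34 were lower and Cd36 higher without overlap of the groups, which is 4 of 29 genes, where 3.89% of all probe sets lie. Sult2a8, a sulfotransferase of bile acids, was at -0.79 and Ugt2b34, a glucuronosyltransferase, at -0.40 (limma adjusted p = 0.243 and 0.419). Cyp1a2, Sult2a8 and Ugt2b34 were named after their values were seen.

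**Figure D3:**
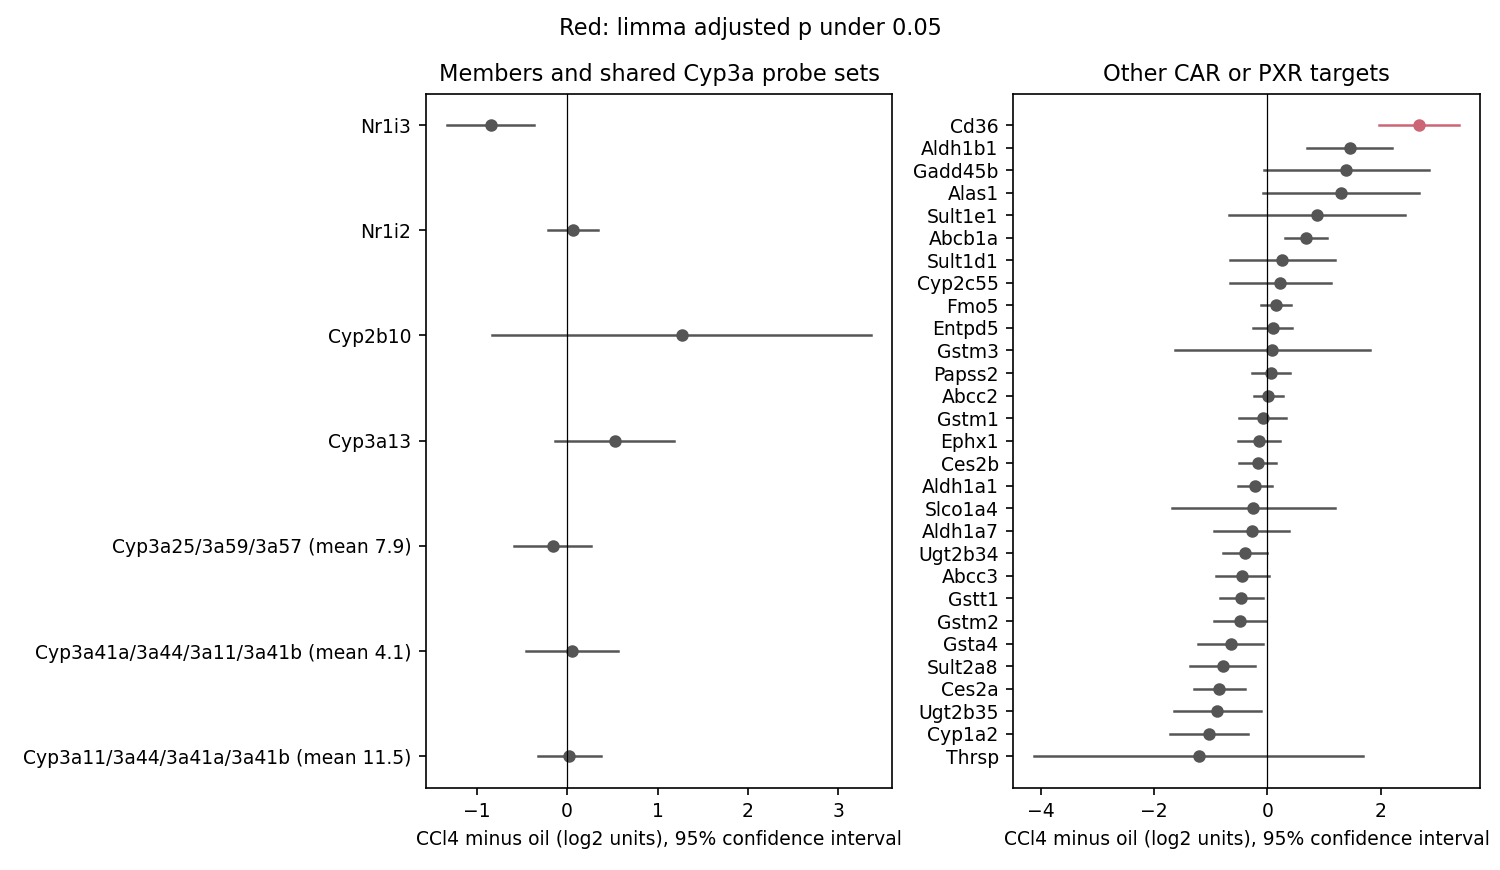
Log2 difference CCl4 minus oil (x axis, log2 units) with its 95% confidence interval from limma (n = 5 per group), for the 4 measured genes and the shared Cyp3a probe sets on the left and for 29 further targets of CAR or PXR on the right. Cd36, in red, is the gene past the threshold; the widest intervals on the left and right belong to Cyp2b10 and Thrsp.

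CCl4 replicate 4 stood apart in many genes of this pathway, and in genes outside it. Of 49 genes (the 4 measured genes, 16 partners and 29 targets), its value lay outside the range of the other 9 arrays for 36. For the other arrays this count ranged from 2 to 15. Over all probe sets the same share was 32.3% for CCl4 replicate 4 and from 14.3% to 24.8% for the other arrays. Most probe sets are dimmer than most of these genes (median of probe set means 2.58), so this share is no close match. Markers outside the pathway stood apart in this liver too. The endothelial markers Lyve1 and Stab1 were at 8.39 and 6.30, against 3.39 to 6.53 and 4.78 to 5.27 in the other 9. Tat, a hepatocyte marker, was at 13.0 against 11.7 to 12.6. The genes farthest from the other CCl4 livers, named after their values were seen, were Thrsp, Cyp2b10, Sult1e1, Ppargc1a, Gstm3, Gadd45b, Slco1a4 and Sult1d1, each by more than 2 log2 units.

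The genes went in both directions in this liver. Sult1e1, the estrogen sulfotransferase, was at 5.36 against 1.22 to 1.502 in the other 9 livers. Gadd45b, a stress-induced coactivator of CAR, was at 7.42 against 2.70 to 4.36, and Ppargc1a at 9.14 against 4.47 to 5.68. Slco1a4, a hepatic uptake transporter, was at 8.44 against 4.53 to 6.73, and Sult1d1, a sulfotransferase of catecholamines, at 11.1 against 8.59 to 9.32. Thrsp, a lipogenic gene, was at 3.59 against 9.25 to 11.5, and Gstm3, a glutathione transferase, at 3.37 against 5.03 to 7.68. Nr1i3 in this liver, 6.92, lay within the range of the other CCl4 livers, and Nr1i2, 7.64, within that of the oil livers. Without CCl4 replicate 4, 1 of the 29 targets was higher (Cd36) and 1 lower (Cyp1a2), the median was -0.02, and 0 of the 4 measured genes passed. Over all probe sets 79 were higher and 13 lower in that fit.

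**Figure D4:**
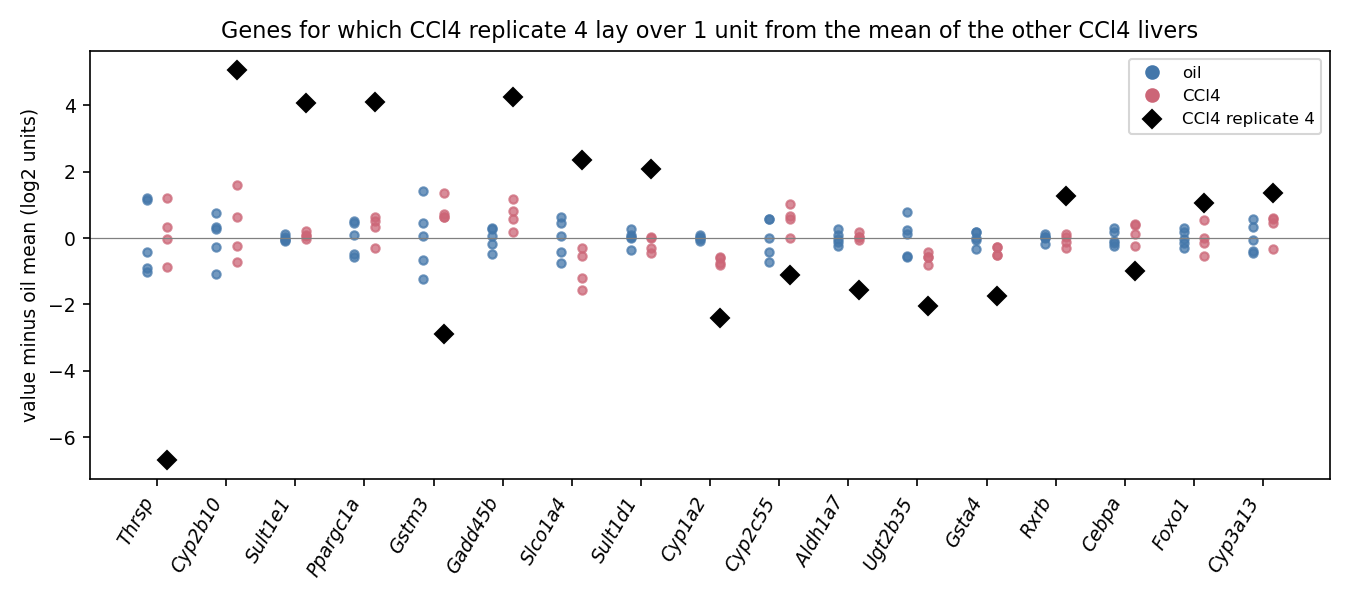
Value minus the oil mean (y axis, log2 units) for the 17 of 49 genes in which CCl4 replicate 4 (black diamonds) lay over 1 unit from the mean of the other CCl4 livers (red points), with oil livers in blue. Cyp2b10, Sult1e1, Ppargc1a and Gadd45b lie over 4 units above the oil mean in that liver, and Thrsp over 6 units below it.

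Clock genes differed between livers in both groups. The transcription factors Dbp, Tef and Hlf, which follow the clock, are known to maintain Nr1i3 in mouse liver. Dbp was at 8.39, 7.77, 3.43, 4.04 and 3.42 in oil replicates 1 to 5 and at 8.72, 8.08, 5.74, 5.76 and 6.31 in CCl4 replicates 1 to 5. Oil replicates 1 and 2, with the highest Dbp of their group, had the highest Nr1i3 of that group. CCl4 replicates 1 and 2, with the highest Dbp of their own group, had Nr1i3 at 7.16 and 6.62. With the level of Arntl minus Dbp as a covariate the Nr1i3 difference was -0.89 (limma adjusted p = 0.172). Of 12 measured clock and Dbp family genes 0 passed (limma), with a median of 0.03, or 0.08 without CCl4 replicate 4. An unadjusted p under 0.05 was found for 2, Nr1d2 as higher and Npas2 as lower, where 11.3% of all probe sets lie. Nr1d2 was at 1.65 (adjusted p = 0.319), Npas2 at -1.30 (adjusted p = 0.438), Per1 at 0.83 (adjusted p = 0.549) and Per3 at 0.67 (adjusted p = 0.555, all limma).

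Acute phase genes are raised in inflammation, and values of whole liver do not show which cells raised them. Of 14 measured, 2 passed as higher, Lcn2 and Saa3, where 0.630% of all probe sets pass, and 0 as lower. The median was 0.15, and 0.47 without CCl4 replicate 4, and the list mean ranged from 9.64 to 10.04 in oil and from 10.5 to 11.6 in CCl4 livers. Lcn2 was at 5.25, 5.76, 6.18, 5.63 and 5.61 in oil replicates 1 to 5 and at 9.70, 12.57, 10.83, 11.06 and 9.003 in CCl4 replicates 1 to 5. Within the CCl4 group, replicate 2 had the highest Lcn2 and the lowest Nr1i3, and replicate 5 the lowest Lcn2 and the highest Nr1i3. Saa3, Orm2 and Hp were also highest in replicate 2 but not lowest in replicate 5. Saa3 was at 8.23, 9.22, 8.03, 7.92 and 8.40 in CCl4 replicates 1 to 5. The lowest Orm2 was in replicate 4 (7.48) and the lowest Hp in replicate 1 (12.3). The order seen for Lcn2 was not particular to acute phase genes. The macrophage markers Clec7a and Lgals3 were also highest in replicate 2 (8.47 and 9.60) and lowest in replicate 5 (5.60 and 5.86). Not every macrophage marker followed, and Gpnmb was highest in replicate 1 (9.54). Lcn2 and Saa3 rose by 4.95 and 4.09 on the log2 scale (limma adjusted p = 0.00596 and 0.00134), and Orm2 and Hp were at 2.81 and 0.47 (limma adjusted p = 0.0696 and 0.15). The part of the acute phase and of the macrophage and stellate lists in the Nr1i3 result was not tested. For the clock, only the fit with Arntl minus Dbp as a covariate was run, and its part was otherwise not tested.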

How the data were processed

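Whole liver RNA of 5 CCl4 and 5 oil mice was measured on Affymetrix arrays, called Mouse Exon 1.0 ST by the series text and probes' annotation but Mouse Gene ST 1.0 by the methods. The authors deposited 1 log2 value per probe set and array; the log2 scale was inferred from the largest value, 13.4. How background was corrected and arrays normalized is not given in the sources used here, so detection is unknown and dim genes may be understated. The number of arrays limits the precision.

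Values were used as deposited. Of 23332 probe sets, 14996 had 1 symbol, 1019 several and 7317 none, and genes were named from the first kind only. CCl4 was compared with oil across all probe sets by limma 3.58.1 in R 4.3.3 (two-sided, Benjamini-Hochberg adjustment over all probe sets, threshold 0.05). The procedure was tested on simulated data. The receptor difference was tested by an exact permutation test. Alternatives were a replicate block, quantile normalization, median centring, brighter probe sets, array quality weights, a clock covariate, the methods' t-test and each array left out.

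The 6 genes, the 6 gene lists (the remaining Cyp2b and Cyp3a genes, receptor partners, targets, clock and acute phase genes) and the 10 marker lists were chosen with earlier results of these data known. The text names the members, the remaining Cyp2b and Cyp3a genes, of each other list those past the threshold and the 4 with the smallest adjusted p, and the 3 genes most like Nr1i3, Nr1i2 and Cyp2b10. Exceptions are marked, or serve as background (Alb, Rxra, Hnf4a).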

Additional observations from a re-analysis of the deposited data

Results flagged for a closer look

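Among 88 groups of 5 arrays of the genes, probe sets and the receptor difference named above, 9 had 1 array far from the other 4 relative to the group's range, where chance gives about 1 in 20 groups. In 7 of the 9 the array was CCl4 replicate 4. Its values were 9.14 for Ppargc1a (4.74 to 5.68 in the other CCl4 livers), 3.59 for Thrsp (9.42 to 11.5), 5.36 for Sult1e1 (1.26 to 1.502), 3.37 for Gstm3 (6.89 to 7.62), 7.42 for Gadd45b (3.35 to 4.36), 11.1 for Sult1d1 (8.59 to 9.07) and 1.55 for Cyp2b19 (1.71 to 1.77), the last below the array medians. Several of these genes were named because this array stood out, so that the count is not independent of their choice. Cyp2b10 in the same liver, at 11.05, did not reach the limit, since the other CCl4 livers were themselves spread from 5.26 to 7.59.

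Aldh1b1 was at 5.63 in oil replicate 5, against 5.09 to 5.20 in the other oil livers. The probe set shared by Cyp2b9 and Cyp2b13 with 2 unrelated genes was at 3.01 in CCl4 replicate 1, against 1.43 to 1.88 in the other CCl4 livers.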

How the results depend on the processing

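The direction of all 4 genes held under every alternative run. Nr1i3 lay between -1.02 and -0.71 with 1 array left out, and passed the threshold without CCl4 replicate 5; by the methods' t-test at its unadjusted p and fold it was taken (-0.85, unadjusted value 0.00746). Its adjusted p lay between 0.0282 and 0.242 over the limma alternatives, 0.0720 among brighter probe sets. Nr1i2, Cyp2b10 and Cyp3a13 did not pass in any alternative. Cyp2b10 was between 0.32 and 1.76 with 1 array left out and 1.77 with the clock covariate, and Cyp3a13 between 0.32 and 0.74 with 1 array left out. The receptor shift lay between -1.07 and -0.76 with 1 array left out. Over all probe sets, same-numbered deviations correlated between -0.04 and 0.16, over 0.1 for 1 of 5 numbers. Arntl minus Dbp, however, was lowest in replicates 1 and 2 of both groups (-5.56 and -4.86 in CCl4, -5.25 and -4.35 in oil livers). Whether same-numbered livers belong together cannot be told from these values. As a paired comparison (replicate block) the receptor shift was -0.91 with an exact sign-flip p = 0.0625, the smallest possible. Cyp3a13 was then at 0.52 ± 0.14 (SE), with an unadjusted p of 0.0077 and an adjusted p of 0.213 (limma).

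Of all probe sets, 147 were higher and 21 lower. These counts were 30 and 6 with the replicate block, 251 and 47 among brighter probe sets, 45 and 9 with the clock covariate, 12 and 2 by the methods' t-test after adjustment, and 545 and 155 at its unadjusted p and fold. The lower count was 39 with quantile normalization and 36 with median centring. With 1 array left out they lay between 30 and 259 and between 5 and 40.

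Without CCl4 replicate 4, an alternative chosen after seeing the data, 3 macrophage markers were higher, all among the 6, and 7 stellate markers as before. Over all probe sets the higher count fell from 147 to 79 and the lower count from 21 to 13. The mean of a gene's probe sets changed nothing, since each measured gene had 1.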
